A study of Mus musculus with 8 samples.

Results

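Rprm, the gene for the p53-induced arrest protein Reprimo, and 9 long-known transcriptional targets of p53 (Cdkn1a, Mdm2, Ccng1, Phlda3, Trp53inp1, Bax, Bbc3, Eda2r and Zmat3) were followed in the mouse inner medullary collecting duct. The 10 genes were taken by symbol from a deposited table of 77981 genes, and all 10 reached the mean of 1 TPM (a transcript level scaled for length and to the same total in every library) that was needed for testing, as did 19043 genes in all. The 10 were chosen by their TPM values in these same 8 libraries and their difference between the genotypes, as a reading of whether carrying Cre recombinase went with a DNA damage response, so their values are given as a description. Calls of the genome-wide test among them are counted beside the share over all genes, and again under other settings in the closing section. No p-value is given for any of them.

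The study made an inducible knockout of Avp, the vasopressin gene. Kidney RNA labelled IMCD, for inner medullary collecting duct, was sequenced as 4 libraries of the genotype AVP-flox, where loxP sites placed in the first intron and downstream of the gene flank Avp, and in 4 libraries of the genotype AVP-flox;Cre, which carry the recombinase as well. The floxed allele and tamoxifen, the drug that switches on inducible forms of Cre, are thus common to both groups, and no group has Cre without the floxed allele. The labels used here give neither the promoter that drives Cre nor the age of the mice, the dose of tamoxifen or the time since it was given, and they do not say whether the replicates are separate animals, so a p-value measures only the spread between these samples. TPM values keep no record of read number, so the depth behind every value below is unknown.

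The p53 protein is held at a low level by Mdm2, a ubiquitin ligase that p53 itself induces. When DNA breaks, the kinases Atm and Chek2 help to free p53 from Mdm2, and p53 then binds elements near its target genes, which stop the cell cycle, repair DNA, change metabolism or start apoptosis. In the renal medulla p53 is also known for its activation by high salt. Cre recombinase can cut mammalian DNA at sequences that resemble loxP, and p53 targets are a usual place to look for that damage.

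The labels were checked first. The level of Avp was 0 to 0.24 TPM in the AVP-flox libraries and 0 to 0.27 TPM in the Cre-carrying ones, so this tissue cannot show its loss. Esr1, whose ligand-binding part is used in many tamoxifen-inducible Cre proteins, ranged from 0.91 to 2.23 TPM in AVP-flox and from 54.2 to 202 TPM with Cre, although a gene total does not separate the mouse gene from a construct with a part of it. All 8 collecting duct markers were detected. Their summed level, most of it Aqp2, was 19683 to 23711 TPM in AVP-flox and 10476 to 12514 TPM with Cre. Of the 8, the water channels Aqp2, Aqp3 and Aqp4 fell, the urea transporter Slc14a2 rose (log2 fold change 0.45), and Avpr2 (0.08), Fxyd4 (0.41), Hsd11b2 (-0.11) and Gata3 (0.02) did not pass. 3 libraries stood apart from the others: 33576 genes were above 0 TPM in AVP-flox;Cre 2 and 50951 to 58232 in the other 7, AVP-flox;Cre 4 had the most genes of at least 1 TPM (23412), and AVP-flox 2 had the lowest summed level of thick limb markers (288 TPM in a group that reached 2090 TPM). The difference in Rprm and the counts of changed genes in the further lists are also given without these 3, as are the calls that were lost without them.

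Among the 10 genes, Rprm differed most between the genotypes, Trp53inp1 and Zmat3 were also higher in every Cre-carrying library, and the other 7 genes had overlapping groups. The log2 fold change (Cre-carrying minus AVP-flox, on log2(TPM + 1)) was 3.04 for Rprm, 0.86 for Trp53inp1, 0.45 for Zmat3 and 0.27 for Eda2r. It was 0.05 for Bax, 0.02 for Ccng1, -0.18 for Bbc3, -0.31 for Mdm2, -0.38 for Phlda3 and -0.55 for Cdkn1a. By limma with Benjamini-Hochberg adjustment over all tested genes, 2 of the 10 (Rprm and Trp53inp1, both higher) were past the threshold of 0.05, where 27.3% of all tested genes were (13.1% rose and 14.2% fell). Complete separation of the groups was seen for 3 of the 10, all higher with Cre, where 29.5% of all tested genes separated and 14.7% did so in that direction. Since these values chose the genes, nothing is read from the counts. The median log2 fold change was 0.04 over the 10 and -0.01 over all tested genes.

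**Figure D1:**
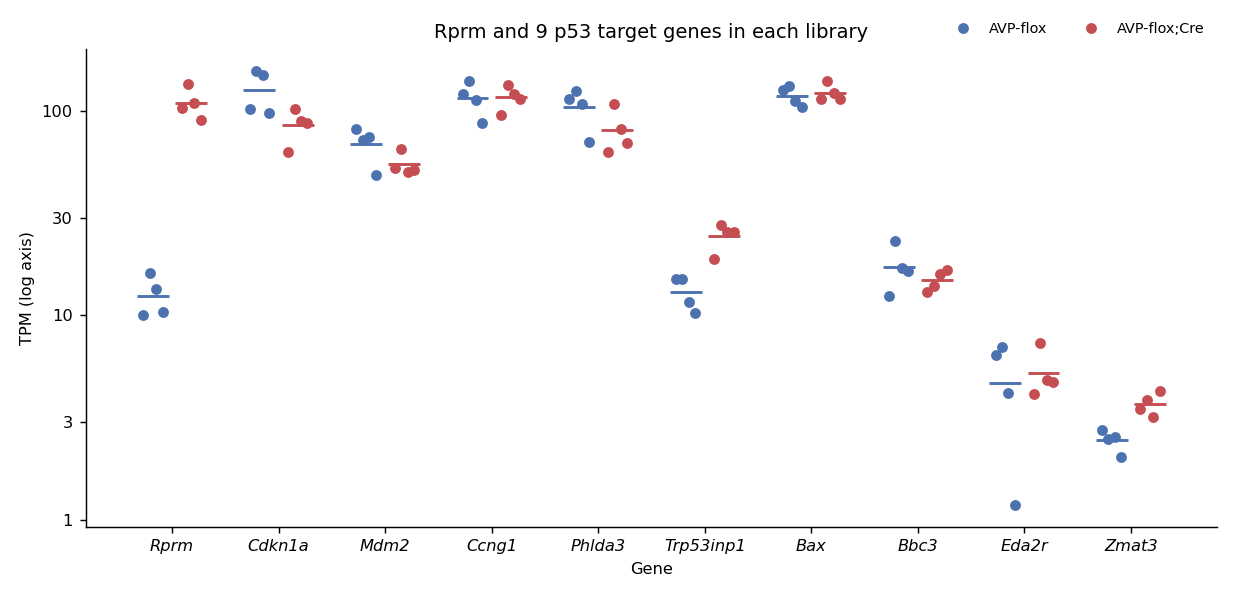
Level of each of the 10 genes in every library, in TPM on a log axis, with blue points for the 4 AVP-flox libraries, red points for the 4 AVP-flox;Cre libraries and a short line at each group mean. Rprm moved from 9.99 to 16.2 TPM up to 90.2 to 135 TPM, Trp53inp1 and Zmat3 separated by less, and the points of the other 7 genes overlap.

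Rprm encodes Reprimo, a small protein that arrests cells in G2 when p53 induces it. Its level in AVP-flox libraries 1 to 4 was 9.99, 16.2, 13.4 and 10.4 TPM, and in the Cre-carrying libraries 1 to 4 it was 103, 135, 109 and 90.2 TPM. The lowest Cre-carrying library stood far above the highest AVP-flox library, and each of the 4 was 8.26, 10.8, 8.72 and 7.21 times the AVP-flox mean of 12.5 ± 2.89 TPM (SD, n = 4). The mean with Cre was 109 ± 18.7 TPM (SD, n = 4), an 8.74-fold difference with a log2 fold change of 3.04 (SE 0.16). Of the 19043 tested genes, 13 had a larger log2 fold change. Rprm is a gene of 1 exon on chromosome 2, the chromosome that also holds Avp. The GC content of its first 300 nt is 64.3%, and correcting each library for its trend with GC content left the log2 fold change at 3.05. Without the 3 libraries that stood apart it was 3.14.

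Among the other arrest and feedback genes, none was separated between the genotypes apart from Trp53inp1. Cdkn1a encodes p21, the inhibitor of cyclin-dependent kinases through which p53 blocks entry into S phase. It measured 102, 157, 149 and 97.7 TPM in AVP-flox 1 to 4 and 63.2, 102, 89.2 and 87.2 TPM in the Cre-carrying libraries 1 to 4. The means were 126.5 ± 31.0 and 85.5 ± 16.3 TPM, with the lower mean in the Cre-carrying group (log2 fold change -0.55, SE 0.19), and the highest library of that group lay above the lowest 2 AVP-flox libraries. In the M21 annotation its exons overlap those of AC167363.2 on the opposite strand, and the SMART-Seq protocol keeps no strand, so reads of the pair cannot be told apart.

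Mdm2 is both a target of p53 and its main inhibitor. Its levels were 82.0, 72.4, 74.3 and 48.6 TPM in AVP-flox and 52.4, 64.9, 50.3 and 51.7 TPM with Cre (log2 fold change -0.31, SE 0.15). AVP-flox 4 was the lowest of all 8 libraries and made the groups overlap. With 1 library left out, the log2 fold change of Mdm2 ran from -0.47 (without AVP-flox 4) to -0.23 (without AVP-flox 1). Ccng1 encodes cyclin G1, which brings the phosphatase PP2A to Mdm2. It measured 122, 140, 113 and 87.2 TPM in AVP-flox and 95.8, 134, 122 and 115 TPM with Cre, and the Cre-carrying libraries all lay within the AVP-flox range (log2 fold change 0.02, SE 0.15).

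Phlda3 encodes a pleckstrin-homology protein that restrains the kinase Akt. Its levels were 115, 125, 108 and 70.4 TPM in AVP-flox and 62.7, 108, 81.2 and 69.7 TPM with Cre (log2 fold change -0.38, SE 0.20). The lower mean with Cre again left the groups overlapping, with AVP-flox 4 among the low libraries. With 1 library left out, the difference ran from -0.55 (without AVP-flox 4) to -0.27 (without AVP-flox;Cre 1).

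Trp53inp1 encodes a stress protein that works in the nucleus with p53 and in the cytoplasm in autophagy. It stood at 15.03, 15.01, 11.6 and 10.3 TPM in AVP-flox and at 18.8, 27.8, 25.7 and 25.5 TPM with Cre. Every Cre-carrying library was above every AVP-flox library, AVP-flox;Cre 1 by the smallest margin. The mean was 13 ± 2.39 TPM in AVP-flox and 24.5 ± 3.90 TPM with Cre (SD, n = 4 each), a 1.88-fold difference with a log2 fold change of 0.86 (SE 0.16).

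The death genes of the set were close between the genotypes. Bax, which opens the outer mitochondrial membrane, measured 127, 132, 112 and 104 TPM in AVP-flox and 115, 140, 122 and 115 TPM with Cre (log2 fold change 0.05, SE 0.10). Its groups overlapped almost wholly, and the annotated exons of Gm45808 share its strand. Bbc3, which encodes the BH3-only protein Puma, measured 12.5, 23.2, 17.1 and 16.5 TPM in AVP-flox and 13.01, 14.0, 16.0 and 16.7 TPM with Cre (log2 fold change -0.18, SE 0.17), and AVP-flox 2 alone stood clearly above the rest.

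Eda2r, a receptor for ectodysplasin A2 of the tumour necrosis factor receptor family, measured 6.42, 6.98, 4.16 and 1.18 TPM in AVP-flox and 4.13, 7.32, 4.81 and 4.73 TPM with Cre (log2 fold change 0.27, SE 0.38). Its low value in AVP-flox 4 gave it the widest error of the 10 genes. Zmat3, a zinc-finger protein that binds RNA and affects splicing and mRNA stability, measured 2.74, 2.49, 2.54 and 2.03 TPM in AVP-flox and 3.5, 3.87, 3.2 and 4.25 TPM with Cre. Its groups did not overlap, at means of 2.45 ± 0.30 and 3.71 ± 0.46 TPM (SD, n = 4 each) and a log2 fold change of 0.45 (SE 0.16), which the pseudocount of 1 understates at so low a level.

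Set in order of level in AVP-flox, Cdkn1a (126.5 ± 31.0 TPM) was followed by Bax (119 ± 13.2), Ccng1 (116 ± 22.0), Phlda3 (105 ± 24.0) and Mdm2 (69.3 ± 14.4), each overlapping the next. A gap followed, since no Mdm2 value reached down to those of Bbc3 (17.3 ± 4.4 TPM), Trp53inp1 (13 ± 2.39) and Rprm (12.5 ± 2.89), which overlapped in turn. Eda2r (4.69 ± 2.64 TPM) and Zmat3 (2.45 ± 0.30) were lowest. With Cre, Rprm moved from the place 8 of 10 to the place 3, at 109 TPM between Ccng1 (116.5 TPM) and Cdkn1a (85.5 TPM), and its range overlapped those of both neighbours.

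The promoters were read for p53 elements, and 3 are shown: that of Rprm, the gene that differed most, and those of Cdkn1a and Ccng1, in which an element was found. Windows of 250 bases before the start site, from RefSeq on GRCm38.p6, were found for 8 of the 10 genes (11 windows). Trp53inp1 and Zmat3 had no entry. The p53 consensus decamer, which reads the same on both strands, was present in 7.13% of all 32841 windows of this length, and in windows of Bax, Mdm2, Ccng1 and Cdkn1a. The 20-letter element, a pair of decamers in succession with both C and G cores exact and at most 1 other mismatch, was present in 0.0579% of all windows, and in those of Ccng1 and Cdkn1a. The Rprm window held neither and had 1 match to GGGCGG on either strand, a motif found in 32.7% of all windows and in 9 of the 11. These matches describe letters in a short window, and elements of p53 targets often lie outside it. Binding of p53 was not measured here. In the 3 windows that follow, 5′ to 3′ on the gene's strand and ending at the base before the start site, capitals mark a decamer or element. They are Rprm at chr2:54085553-54085802 (minus strand), Cdkn1a, the upstream of its 2 windows, at chr17:29090729-29090978 (plus strand) and Ccng1 at chr11:40755287-40755536 (minus strand).
Rprm: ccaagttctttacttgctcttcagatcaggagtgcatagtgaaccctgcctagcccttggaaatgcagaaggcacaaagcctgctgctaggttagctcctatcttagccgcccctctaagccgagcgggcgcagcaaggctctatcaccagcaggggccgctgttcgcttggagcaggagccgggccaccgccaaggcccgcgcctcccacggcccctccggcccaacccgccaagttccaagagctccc
Cdkn1a: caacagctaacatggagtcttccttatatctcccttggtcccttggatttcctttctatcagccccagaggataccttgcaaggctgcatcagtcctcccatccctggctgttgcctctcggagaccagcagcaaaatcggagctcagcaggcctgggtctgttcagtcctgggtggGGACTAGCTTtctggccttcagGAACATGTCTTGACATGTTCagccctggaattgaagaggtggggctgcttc
Ccng1: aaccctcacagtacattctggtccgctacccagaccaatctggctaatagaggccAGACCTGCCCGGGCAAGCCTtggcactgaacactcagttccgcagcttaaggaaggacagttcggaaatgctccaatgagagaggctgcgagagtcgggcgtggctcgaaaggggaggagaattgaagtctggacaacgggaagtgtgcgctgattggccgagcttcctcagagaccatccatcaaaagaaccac
The Cdkn1a element lies at chr17:29090928-29090947, 51 bases before that start site, and the Ccng1 element at chr11:40755462-40755481. Their genes stood at -0.55 and 0.02 on the log2 fold change scale.

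The 10 genes also varied together inside each genotype. AVP-flox 2 held the highest AVP-flox value of 7 of the 10 genes (it did so for 32.2% of all tested genes), and AVP-flox 4 the lowest of 8 (28.6% of all). AVP-flox;Cre 2 was the highest of its group for 8 of the 10 genes (19.7% of all), and AVP-flox;Cre 1 the lowest for 7 (24.2% of all). The median deviation from the group mean was 0.29 log2 units in AVP-flox 2, -0.31 in AVP-flox 4, 0.23 in AVP-flox;Cre 2 and -0.22 in library 1 of the same genotype, where the median of all tested genes was 0.04, -0.02, -0.07 and -0.01. Rprm took part in the highs of both libraries numbered 2, but its low values were in AVP-flox 1 and AVP-flox;Cre 4. Of these libraries, AVP-flox;Cre 2 is the one with the fewest genes above 0 TPM. It was the lowest of its group for 40% of all tested genes and for 0 of the 10. The shares over all tested genes were not taken at levels like those of the 10. Both libraries numbered 2 had the lowest share of mitochondrially encoded RNA in their group. It was 2.35% in AVP-flox 2, against up to 4.42%, and 2.4% in AVP-flox;Cre 2, against up to 2.85%. The part of these traits in the shared pattern was not tested.

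**Figure D2:**
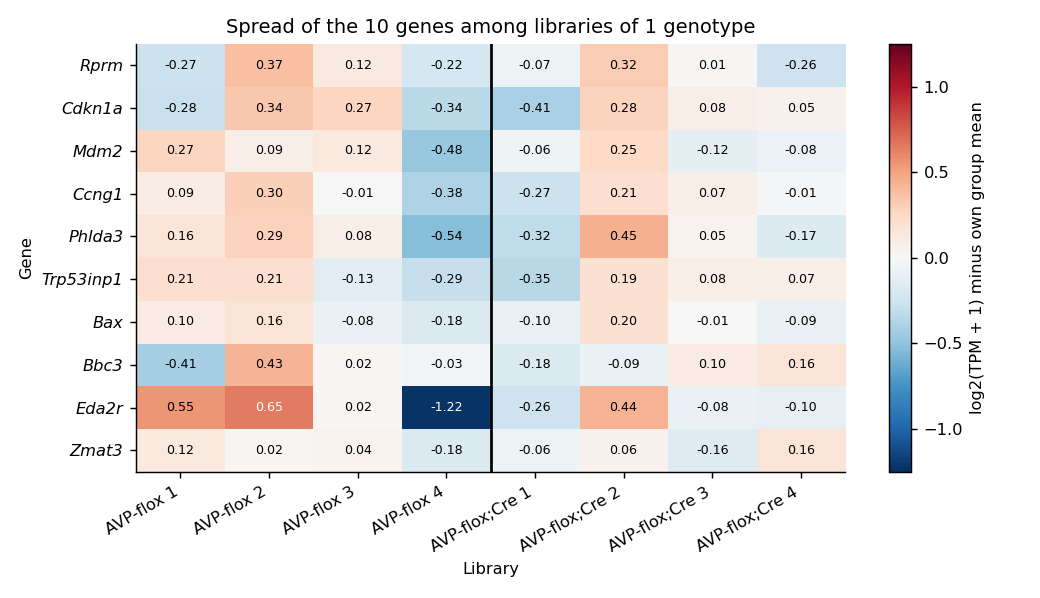
Deviation of each of the 10 genes, in rows, from the mean of its own genotype in each library, in columns, in log2(TPM + 1) units, with red above and blue below the group mean and the vertical line between the genotypes. The columns of AVP-flox 2 and AVP-flox;Cre 2 are mostly red and those of AVP-flox 4 and AVP-flox;Cre 1 mostly blue, and the single strongest value is -1.22 for Eda2r in AVP-flox 4.

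Away from the set, the genes nearest to Rprm in profile were no p53 targets of the lists used here. Likeness was measured as the root mean square difference of log2(TPM + 1), centred on each gene's mean over the 8 libraries, among 11954 other tested genes whose mean reached 5 TPM. Plac8 was nearest (0.26), at 44.7 TPM in AVP-flox and 298 TPM with Cre. Aldh1a1, a retinaldehyde dehydrogenase (0.30), went from 13.3 to 86.0 TPM, and Ros1, a receptor tyrosine kinase (0.30), from 4.16 to 36.5 TPM. Igfbp2, an insulin-like growth factor binding protein (0.33), went from 122 to 1260 TPM. Padi2, which converts arginine in proteins to citrulline (0.35), went from 0.998 to 9.53 TPM, and its exons overlap Gm13031 on the opposite strand. The other p53 targets of the set were farther off: 1.12 for Trp53inp1, 1.5 for Bax and 1.8 for Cdkn1a. The 8 libraries share the genotype split, so the measure is mainly one of equal fold.

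**Figure D3:**
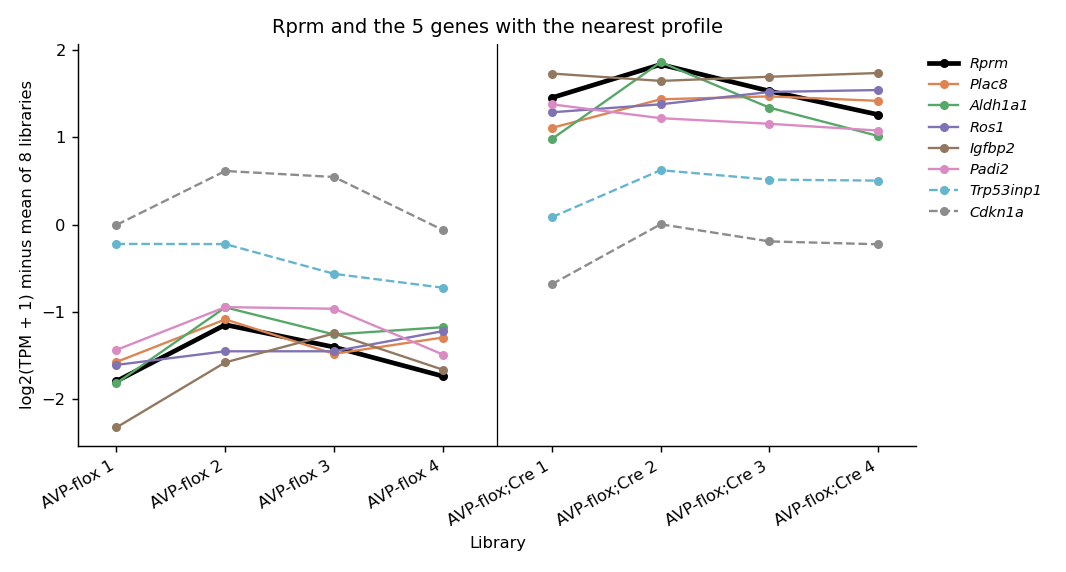
Profile of Rprm (black), its 5 nearest genes (solid colours) and, for comparison, Trp53inp1 and Cdkn1a (dashed) over the 8 libraries, as log2(TPM + 1) minus the mean of the 8. Rprm and its neighbours all step up from AVP-flox to AVP-flox;Cre, by 2.42 to 3.40, while Trp53inp1 steps up by 0.86 and Cdkn1a differs by -0.55.

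Marker genes of other cells differed between the genotypes as well. Over all tested genes 13.1% rose and 14.2% fell. The markers of papillary surface and urothelium rose, 5 of 5. Their summed level, most of it Psca, was 1715 to 2695 TPM in AVP-flox and 4796 to 5566 TPM with Cre. Interstitial markers, of which 2 of 5 rose, summed to 110 to 149 TPM and 225.5 to 289 TPM. Pdgfra (log2 fold change 1.06) and Col1a2 (1.33) rose, while Pdgfrb (0.24), Dcn (0.15) and Col1a1 (-0.08) did not pass. The 4 endothelial markers, of which 1 rose and 2 fell, summed to 849 to 979 TPM and 520 to 575 TPM, most of it Emcn. Their log2 fold changes were -0.96 for Emcn, -0.41 for Pecam1, 0.22 for Cdh5 (not past the threshold) and 0.65 for Kdr. Of 6 leukocyte markers 1 rose (summed level 28.9 to 36.8 TPM and 45.7 to 63.1 TPM), with Cd3e and Cd79a below 1 TPM. Of 4 tested intercalated cell markers 1 rose, Atp6v0d2, and the sums were 152 to 257 TPM and 210 to 291 TPM. None of the 3 tested thick limb and distal markers passed (Slc12a1 -1.39, Umod -0.75 and Slc12a3 -0.16 on the log2 scale; Pvalb was below 1 TPM), at sums of 288 to 2090 TPM and 477 to 701 TPM. None of the 4 tested proximal markers passed either (4.2 to 53.9 TPM and 9.6 to 16.4 TPM, with Cubn below 1 TPM). In bulk RNA fewer cells of a type and less RNA per cell cannot be told apart, and the part of these cells in the levels of Rprm, Trp53inp1 and the genes below was not tested.

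A wider reading of the pathway came from 42 further genes listed as p53 targets, of which 38 could be tested. Wrap53, which lies next to Trp53, and Trp53inp2 and Rprml, named like Trp53inp1 and Rprm, were counted with them. Whether p53 acts on any of the 42 in this tissue was not tested. 3 rose, 11 fell and 24 did not pass the limma threshold, at a median log2 fold change of -0.22 against -0.01 over all tested genes. Changed genes were thus 36.8% of those tested, beside 27.3% of all genes. Complete separation was seen for 3 genes higher and 7 lower with Cre, where 14.7% and 14.9% of all genes separated in these directions. With the 3 libraries that stood apart left out, 2 of 37 tested rose and 5 fell. The rises were those of Dcxr and Mdm4. The falls were those of Ak1, Perp, Plk3, Tigar and a gene that was not called with all 8 libraries. Without the 3 libraries, 1378 of all 18984 tested genes rose and 1182 fell. The shares of 13.1% rising and 14.2% falling over all tested genes apply to each list below in the fit of all 8 libraries. The lower counts of 1378 and 1182 apply wherever a list is counted without the 3 libraries. Among the calls of these targets, those of Pmaip1, Sesn2, Ercc5, Xpc, Ephx1, Fdxr, Wrap53 and Cop1 were lost without the 3 libraries (adjusted p of 0.0706 to 0.35, with Fdxr at a log2 fold change of -0.23).

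Of the 7 further arrest genes tested, Plk3 was the one that changed (14.3%, beside 27.3% of all tested genes; median of the 7, -0.39). Plk3, a stress-activated polo-like kinase, fell from 23.0, 16.3, 16.3 and 27.4 TPM in AVP-flox to 9.65, 4.56, 8.76 and 5.90 TPM with Cre (log2 fold change -1.42, SE 0.24, limma adjusted p = 0.00205), with no overlap. Its exons overlap Tctex1d4 on the opposite strand. Among the 6 that did not pass were the arrest genes Btg2 (log2 fold change -0.39) and Gadd45a (0.07).

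Of 10 further death genes, 1 rose and 1 fell (20% changed, beside 27.3% of all; median 0.04). Perp, a tetraspan protein of desmosomes and of apoptosis, fell from 96.4, 118, 97.0 and 84.9 TPM to 55, 69.4, 48.3 and 54.8 TPM (log2 fold change -0.79, SE 0.13, limma adjusted p = 0.00154), and every Cre-carrying library was lower. Pmaip1, which encodes the BH3-only protein Noxa, rose from 17.9 ± 4.48 to 28.5 ± 6.12 TPM (SD, n = 4 each; log2 fold change 0.65, limma adjusted p = 0.0321), though its groups overlapped and the call was lost without any 1 of 5 libraries (AVP-flox 1, 3 or 4, AVP-flox;Cre 3 or 4; adjusted p up to 0.0849). Fas, the death receptor, and Aen, a nuclease, had log2 fold changes of 0.21 and 0.09 and did not pass.

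The 13 repair and metabolism targets held most of the falls: 7 fell, 1 rose and 5 did not pass (61.5% changed, beside 27.3% of all), at a median of -0.24. Tigar, a phosphatase that lowers glycolytic flux, fell from 9.12, 10.9, 9.77 and 7.89 TPM to 3.62, 4.77, 4.34 and 4.81 TPM (log2 fold change -0.95, SE 0.14, limma adjusted p = 0.0011). The groups of Tigar were apart, and Platr31 lies opposite its exons. Ak1, an adenylate kinase, fell from 50.9, 12.5, 42.5 and 38.8 TPM to 9.31, 10.4, 12.2 and 14.2 TPM (log2 fold change -1.42, SE 0.36, limma adjusted p = 0.0167), with AVP-flox 2 down among the Cre-carrying libraries, and without that library its log2 fold change was -1.85. The thick limb marker Umod had a like profile, at 1404, 188, 1139 and 1162 TPM in AVP-flox and 458, 521, 377 and 488 TPM with Cre, as did Slc12a1, at 682, 98.3, 577 and 624 TPM and 151, 180, 97.3 and 190 TPM. The part of these cells in the level of Ak1 was not tested.

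Dcxr, the dicarbonyl and L-xylulose reductase, was the one that rose, from 83.1, 121, 118 and 75.7 TPM to 175, 235, 186 and 180 TPM (log2 fold change 0.98, SE 0.16, limma adjusted p = 0.00201), with every Cre-carrying library higher. Smaller falls were those of the nucleotide excision repair nuclease Ercc5 (log2 fold change -0.38, limma adjusted p = 0.0101), of Sesn2, a sestrin that restrains mTORC1 (-0.37, 0.0219), of the epoxide hydrolase Ephx1 (-0.30, 0.0353), of ferredoxin reductase Fdxr (-0.41, 0.0477) and of the damage sensor Xpc (-0.24, 0.0495). Several of these calls did not hold with 1 library fewer, at folds of like size. Over such fits the log2 fold change ran from -0.43 to -0.31 for Sesn2, from -0.37 to -0.22 for Ephx1, from -0.49 to -0.33 for Fdxr and from -0.31 to -0.20 for Xpc. The call of Sesn2 was lost without AVP-flox 2 or 4 or AVP-flox;Cre 1 or 3 (adjusted p up to 0.059), that of Ephx1 without any library but AVP-flox 4 or AVP-flox;Cre 2 (up to 0.089), that of Fdxr without any but AVP-flox;Cre 1 (up to 0.12) and that of Xpc without any but AVP-flox;Cre 4 (up to 0.123). Ercc5 kept its call in all of these fits, and without the 3 libraries that stood apart it was at -0.33 (adjusted p = 0.111).

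Secreted and feedback targets, 8 tested, gave 1 rise and 2 falls (37.5% changed, beside 27.3% of all; median -0.26). Mdm4, the partner of Mdm2 that blocks the activation domain of p53, rose from 23.7, 21.1, 24.6 and 20.1 TPM to 38.0, 37.8, 36.0 and 41.9 TPM (log2 fold change 0.76, SE 0.09, limma adjusted p = 0.000353), with the groups well apart. Cop1, another ubiquitin ligase of p53, fell from 12.0, 18.4, 33.7 and 31.0 TPM to 12.4, 6.47, 6.10 and 6.02 TPM (log2 fold change -1.45, SE 0.32, limma adjusted p = 0.00902), and AVP-flox 1 and AVP-flox;Cre 1 overlapped. Without the 3 libraries that stood apart the log2 fold change of Cop1 was -1.32 (adjusted p = 0.116). Wrap53, which encodes a telomerase cofactor next to Trp53, fell by 0.55 on the log2 scale (limma adjusted p = 0.0406), a call lost without AVP-flox 1, 2 or 3 or AVP-flox;Cre 2 or 3 (adjusted p up to 0.105). Ppm1d, the phosphatase that ends the p53 response, measured 41.3 ± 8.11 and 32.8 ± 4.07 TPM (log2 fold change -0.32) and did not pass, and Gdf15, a secreted stress cytokine, ranged from 2.63 to 24.9 TPM in the Cre-carrying group alone.

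**Figure D4:**
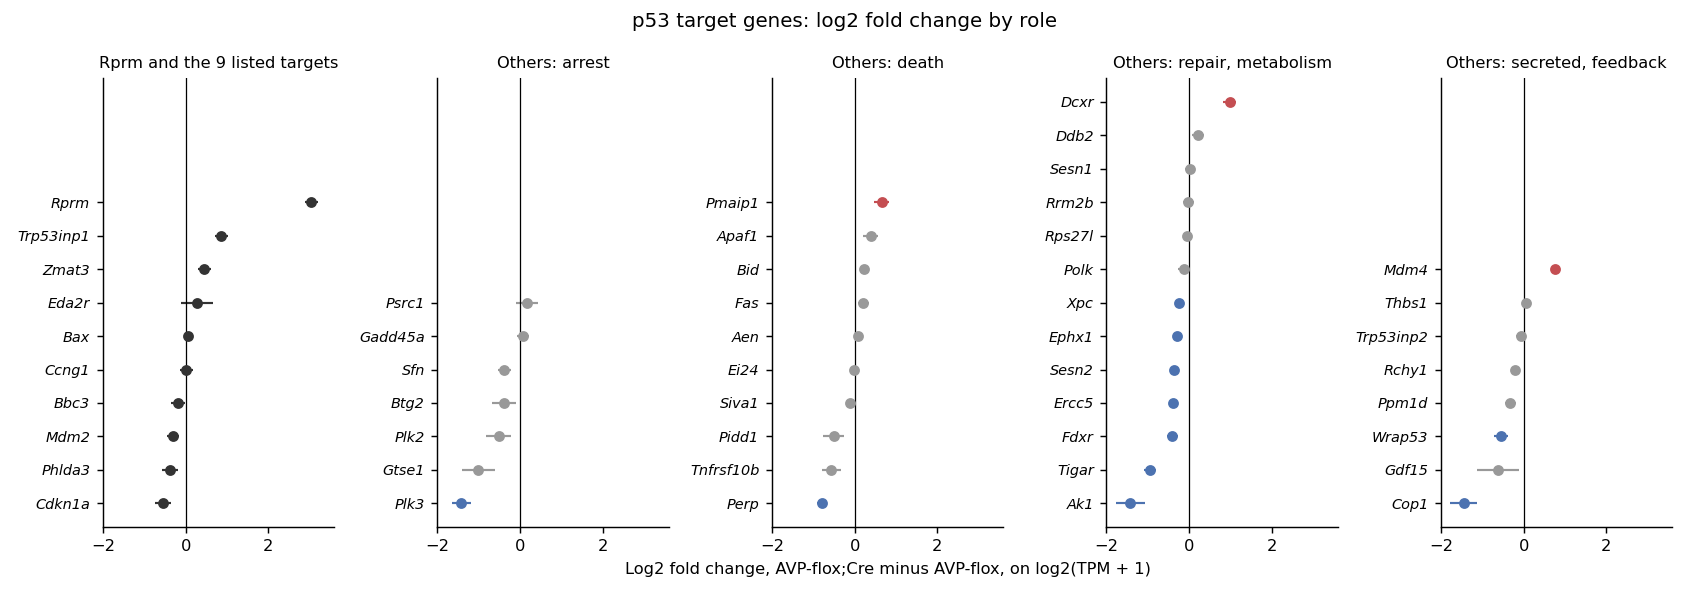
Log2 fold change of each gene (AVP-flox;Cre minus AVP-flox, horizontal axis) with a bar of 1 SE on either side. Shown are the 10 genes (black, no call shown) and 38 further genes listed as p53 targets, split by role. Red marks a gene that rose, blue one that fell and grey one that did not pass the limma threshold. Rprm lies at 3.04, every other target in the 5 panels lies between -1.45 and 0.98, and the repair and metabolism panel holds 7 of the 11 falls.

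Trp53 itself was level. It measured 57.0, 58.7, 52.98 and 52.1 TPM in AVP-flox and 50.4, 65.3, 51.7 and 57.7 TPM with Cre (log2 fold change 0.02, SE 0.09, limma adjusted p = 0.895), with a sign that flipped under several scalings and library sets (lowest -0.08, highest 0.07). Of 12 tested genes of the p53 family and its regulators, 1 rose and 1 fell (16.7% changed, beside 27.3% of all tested genes; median 0.01), and 1 rose and 0 fell without the 3 libraries that stood apart. Trp53bp1, a break-site adaptor that also binds p53, rose from 26.5, 27.5, 32.0 and 30.8 TPM to 41.9, 42.3, 42.6 and 56.9 TPM (log2 fold change 0.63, SE 0.12, limma adjusted p = 0.00338), without overlap, and its exons overlap Tubgcp4 on the opposite strand. Ppp1r13b, which encodes the p53 cofactor Aspp1, measured 16.2, 15.2, 16.4 and 15.4 TPM in AVP-flox and 18.6, 4.66, 5.61 and 4.52 TPM with Cre (log2 fold change -1.07, SE 0.35, limma adjusted p = 0.0467). One Cre-carrying library stood above all AVP-flox libraries, and without AVP-flox;Cre 1 the log2 fold change of Ppp1r13b was -1.51 (adjusted p = 8.99e-05), while leaving out any of the other 7 took the call away (adjusted p up to 0.112). Without the 3 libraries that stood apart it was -0.58 (adjusted p = 0.388).

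Genes of DNA damage sensing and break repair gave 1 rise and 5 falls among 24 tested (median -0.05). Changed genes were 25% of them, beside 27.3% of all tested genes, and 0 rose and 3 fell without the 3 libraries that stood apart. The kinases Atm (3.87 ± 0.63 and 4.17 ± 0.45 TPM, log2 fold change 0.09) and Chek2 (12.4 ± 1.96 and 11.2 ± 1.07 TPM, -0.13) did not pass. H2ax, the histone variant that is phosphorylated around breaks, fell from 27.0, 30.4, 29.7 and 31.0 TPM to 20.3, 18.2, 20.8 and 18.6 TPM (log2 fold change -0.58, SE 0.09, limma adjusted p = 0.00111). Its reader Mdc1 fell from 9.33 ± 0.27 to 5.41 ± 0.33 TPM (SD, n = 4 each; log2 fold change -0.69, limma adjusted p = 0.00153), and neither gene's groups overlapped.

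Xrcc6, the Ku70 subunit of end joining, fell by 0.42 on the log2 scale (limma adjusted p = 0.00223), with Desi1 on the opposite strand of its exons. Rad50, of the Mre11 complex, rose from 15.9 ± 0.87 to 21.2 ± 2.23 TPM (log2 fold change 0.38, limma adjusted p = 0.0167), a call lost without the 3 libraries that stood apart (adjusted p = 0.1) and with no filter on low genes (0.0683). Parp1, which marks breaks with poly(ADP-ribose), fell by 0.21 (adjusted p = 0.0344), a call lost without any library but AVP-flox 4 (up to 0.0998). Rad17, a loader of the checkpoint clamp that overlaps Ak6 on the opposite strand, fell by 0.38 (adjusted p = 0.0425), a call lost without any library but AVP-flox 2 or 4 (up to 0.0906). Without the 3 libraries that stood apart the adjusted p was 0.174 for Parp1 and 0.201 for Rad17.

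Of 23 cell-cycle genes that p53 lowers through p21 and the DREAM repressor complex, 16 were tested, and 0 rose while 2 fell (median -0.02). Changed genes were 12.5%, beside 27.3% of all tested genes, and 0 rose and 1 fell without the 3 libraries that stood apart. Mki67, Ccnb1, Ccnb2, Plk1, Bub1, Foxm1 and E2f1 averaged under 1 TPM and were not tested. For E2f1, a transcription factor of S phase entry, the low side was the Cre-carrying one: it measured 1.85, 1.72, 1.47 and 1.51 TPM in AVP-flox and 0.95, 0.01, 0.19 and 0.06 TPM with Cre, with no overlap, and so stands outside the count. Of the other untested genes, Mki67 was higher with Cre without overlap (0.03 to 0.17 TPM and 0.22 to 0.28 TPM). The groups of Ccnb1, Ccnb2, Plk1, Bub1 and Foxm1 overlapped, with Ccnb2 averaging 0.32 and 1.3 TPM. These values were seen before the genes were named. Among the 16 tested genes, 1 separated higher with Cre (Cdc20, log2 fold change 0.48, which did not pass) and 2 lower. Over all tested genes 14.7% and 14.9% separated in these directions. Rrm2, a subunit of ribonucleotide reductase, fell from 6.73, 8.02, 5.95 and 5.66 TPM to 3.25, 2.91, 3.14 and 4.36 TPM (log2 fold change -0.78, SE 0.16, limma adjusted p = 0.00633), without overlap. Cdk1, the kinase of mitotic entry, fell from 8.79, 6.05, 5.47 and 2.90 TPM to 2.47, 2.76, 0.52 and 0.32 TPM (log2 fold change -1.51, SE 0.40, limma adjusted p = 0.0194), with only a narrow gap between the groups, and the call was lost without AVP-flox 1 (adjusted p = 0.0559) or AVP-flox;Cre 3 (0.0532), without the 3 libraries that stood apart (0.0993) and with no filter (0.052). At so low a level its log2 fold change also depended on the pseudocount, at -2.22 with 0.1 and -0.72 with 5. Pcna, the sliding clamp of replication, measured 47.9 ± 6.22 and 48.5 ± 4.75 TPM (log2 fold change 0.02).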

How the data were processed

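RNA from mouse kidney (IMCD) was measured in 8 libraries, 4 per genotype, made with the SMART-Seq HT and Nextera XT kits per the labels' protocols. The authors deposited TPM values per Ensembl gene, made with STAR and RSEM per the submitters' processing notes. Which genome build and annotation they used is not given in these sources. WT columns were taken for AVP-flox and KO columns for AVP-flox;Cre, by replicate number. Of 78298 identifiers, 312 shared symbols were summed. No depth can be recovered from TPM, so there are no counting intervals.

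R 4.3.3 with limma 3.58.1 (mean-variance trend) was fitted on log2(TPM + 1) for genes averaging 1 TPM or more, two-sided, with Benjamini-Hochberg adjustment over 19043 genes and a threshold of 0.05. The fit was tested on simulated data. The 10 genes and the further lists were chosen with earlier results of these data known. Besides the 10, the text names Avp, Esr1, Trp53, Mdm4, Ppm1d, Atm and Chek2, up to 8 changed genes of each list by adjusted p, and the 5 genes nearest to Rprm. Other genes are named as list members that did not pass or were not tested, chosen after their values were seen. Alternatives were pseudocounts of 0.1 and 5, a block for the replicate number, a filter at 5 TPM or none, 3 scalings, limma without the trend, with robust moderation or with sample weights, identifiers not summed, a covariate for the sex pattern, a GC content correction (87.4% of tested genes had a value in GENCODE M21), a threshold of 0.1, leaving out the 3 libraries that stood apart together, and each library left out. Alternatives that need counts were not run. The sex pattern set Y-linked genes against Xist in each library, and it was not the same in all 8. How it was split between the genotypes is not given here.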

Additional observations from a re-analysis of the deposited data

Results flagged for a closer look

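In groups of 4 libraries, a value was picked out when its gap to the nearest other, divided by the range of the group, was above Dixon's 95% critical value for 4 values. This was so for 5 of 86 groups of the 43 named genes, and chance picks out about 1 in 20. Mdm2 in AVP-flox;Cre 2 was at 64.91 TPM, where the other 3 libraries of its group were at 50.26 to 52.43 TPM. Cop1 in AVP-flox;Cre 1 was at 12.36 TPM against 6.02 to 6.47 TPM. Ppp1r13b in the same library was at 18.59 TPM against 4.52 to 5.61 TPM. Plac8, the gene nearest to Rprm, was at 249.23 TPM in AVP-flox;Cre 1 against 309.1 to 320.33 TPM. Trp53bp1 in AVP-flox;Cre 4 was at 56.89 TPM against 41.86 to 42.56 TPM.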

How the results depend on the processing

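Over the 24 alternatives the log2 fold change of Rprm stayed between 2.71 (pseudocount of 5) and 3.16 and that of Trp53inp1 between 0.71 and 0.98, while that of Cdkn1a lay between -0.66 and -0.41. Where 5204 genes changed in the reported fit, 3409 were called with no filter and 2560 without the 3 libraries that stood apart (number 2 of AVP-flox and numbers 2 and 4 of AVP-flox;Cre), and 4006 to 4767 with 1 library left out. The 10 genes were chosen on these values, and nothing is read from their count of 2 (both higher with Cre). At a threshold of 0.1 this count became 4 (3 rose and 1 fell), where 6764 of all 19043 tested genes were called. With 1 library left out it was 2 to 5. The 5 came without AVP-flox 4 (2 rose and 3 fell), where 4594 of all 19143 tested genes were called. Of the further p53 targets, 8 were called with no filter, 9 without the trend, 7 without the 3 libraries named above and 8 to 12 with 1 library left out (9 without AVP-flox 3 and 8 without AVP-flox;Cre 3, against 14). Of the p53 regulators, 1 was called with a pseudocount of 5, with no filter, with median-of-ratios scaling, without the trend, with robust moderation, with sample weights and without the 3 libraries, and 1 to 2 with 1 library left out. Of the DNA damage genes, 3 were called with no filter and without the 3 libraries, and 4 to 6 with 1 library left out. Of the DREAM genes, 1 was called at a filter of 5 TPM. That filter left 6 of the 16 tested, and Cdk1 was not among them. Without the 3 libraries 1 was called, and 2 to 4 were with 1 library left out (4 without AVP-flox;Cre 4). Fewer samples are fitted when libraries are left out, and more genes are adjusted over with no filter. Fewer genes of a list are tested at a filter of 5 TPM. The cause of the other shifts was not tested. The sign of Trp53 turned under rescaling without mitochondrial and the 10 most abundant genes (-0.01), sample weights (-0.02), the GC correction (-0.02), without the 3 libraries (-0.08), without AVP-flox 4 (-0.01) and without AVP-flox;Cre 2 (-0.05, the lowest with 1 library left out, where the highest was 0.07). No setting moved the median of all genes by more than 0.04.

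Same-numbered libraries of the 2 genotypes correlated by 0.00102 to 0.095 in their deviations from the group means, and only number 3 matched best with its own number, so the numbers were not taken as pairs. With the replicate block 4431 genes were called, 3 of the 10 genes (2 rose and 1 fell), 11 further targets, 2 regulators, 5 DNA damage genes and 2 DREAM genes. The covariate for the sex pattern gave 5203 genes and 2 of the 10 (both rose). It also gave 10 further targets, 2 regulators, 6 DNA damage genes and 2 DREAM genes. With this covariate the log2 fold change was 3.04 for Rprm and -1.79 for Cdk1 (limma adjusted p = 0.00106 for Cdk1). TPM gives no read number, so what depth limits at low levels such as those of Zmat3 and Eda2r is unknown.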
